A study of Mus musculus with 2 samples.

Results

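The immediate early genes outside the AP-1 family were followed on a pair of arrays of mouse liver tumour tissue, 1 HLF-deficient and 1 wild-type. The set held 10 genes: the zinc finger transcription factors Egr1, Egr2 and Klf6, the orphan nuclear receptors Nr4a1, Nr4a2 and Nr4a3, the early response genes Ier2 and Ier3, the mRNA decay factor Zfp36 and the antiproliferative gene Btg2. They were chosen by symbol, with earlier results of these data known, from the probe sets whose annotation names exactly 1 gene. Each of the 10 was read by 1 such probe set, among 19938 genes that had at least 1.

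Immediate early genes are transcribed within minutes of a growth factor, stress or cytokine signal, without new protein synthesis. Kinases of the ERK, p38 and protein kinase A pathways act on factors already bound at their promoters, mainly SRF with its Elk partners at CArG boxes and CREB at cyclic AMP response elements (CREs). Their mRNAs are short-lived, and several of their products, such as Zfp36 and Btg2, speed mRNA decay. In liver these genes are known to be induced by partial hepatectomy, fasting signals, injury and handling of the tissue.

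Both arrays read tissue of hepatocellular carcinoma induced with DEN (diethylnitrosamine, a chemical liver carcinogen). One group was labelled deficient in hepatic leukemia factor (HLF, a PAR bZIP transcription factor), and the other was wild-type (WT), with 1 array each, on total RNA of carcinoma tissue. The kind of Hlf allele, the strain, age, sex and number of mice or nodules behind each array, and how long tissue stood before extraction, are not given in the sources used here. With 1 array a group there was no replicate check: no SD, p-value or interval between tumours can be given, and every difference below describes these 2 arrays.

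Levels below are log2 values from RMA, and each difference is the HLF-deficient value minus the wild-type value, so that 1 is 2-fold. A gene was compared when at least 1 array lay at or above a floor of 2.98, the level that 95% of the values of olfactory, vomeronasal and taste receptor probe sets did not exceed. This left 14575 genes, whose median difference was 0.07 and of which the central bulk, between the 5th and 95th percentiles, lay from -0.51 to 0.65. For scale, paired probe sets of the same gene on these 2 arrays gave an SD of 0.23 for a single difference, over 696 genes. This SD covers neither effects of extraction, labelling and array, which both probe sets share, nor the spread between tumours. Hlf itself was at 3.79 in the HLF-deficient tumour and 5.13 in the wild-type tumour, a difference of -1.34. Both values lay above the floor, so that full loss of the transcript is not shown here. The HLF-deficient value was close to 3.78, the 99th percentile of the receptor probe sets, so that remaining transcript is not clearly shown either. Hepatocyte markers were high and close in both tumours, Alb at 12.41 in the HLF-deficient and 12.55 in the wild-type one, and all 8 of that list lay within 2-fold with a median of 0.05.

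The early response genes were mostly higher in the HLF-deficient tumour. Nr4a1, Btg2, Egr1, Zfp36, Ier3, Ier2 and Klf6 were higher by at least 2-fold, Nr4a2 was higher by less than that, Egr2 was level, and Nr4a3 was under the floor on both arrays. Thus 7 of the 9 compared genes, or 7 of all 10, passed 2-fold upwards, against 1.5% of all genes compared. None passed it downwards, against 0.364% of all genes. At 1.5-fold the count was again 7 of 9, against 6.37% of all genes, and at 4-fold it was 1 of 9, against 0.185%. The median difference of the 9 was 1.47, or 1.32 with Nr4a3 counted, against 0.07 for all genes compared. The 7 that passed lay between 1.10 and 2.34, and the next, Nr4a2, was at 0.54.

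**Figure D1:**
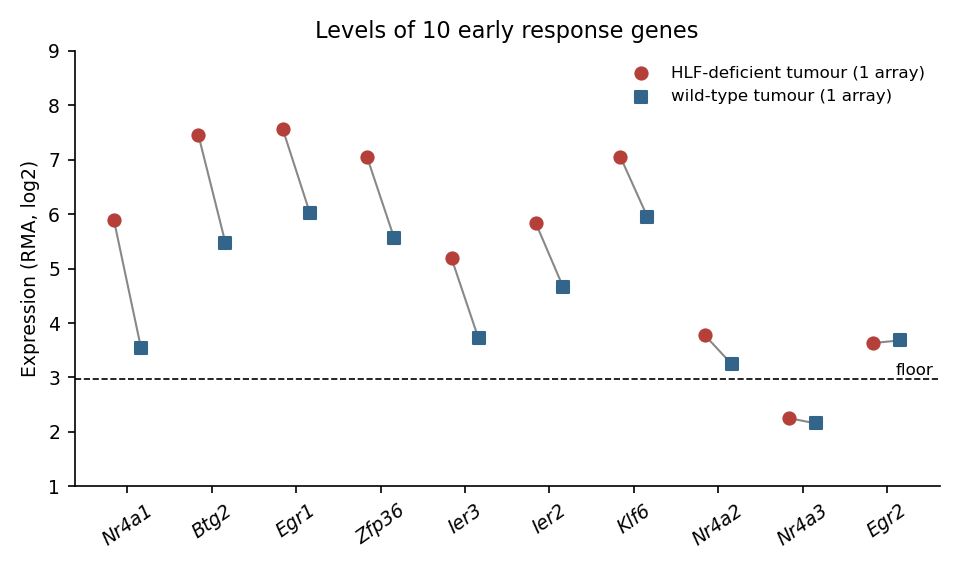
Expression (RMA, log2) of the 10 early response genes on the HLF-deficient array (circles) and the wild-type array (squares), 1 array each, ordered by their difference, with the floor of 2.98 as a dashed line. The circle stands at least 1 unit above the square for the 7 genes from Nr4a1 to Klf6, while both Nr4a3 values lie under the floor and the Egr2 values, 3.63 on the HLF-deficient and 3.68 on the wild-type array, nearly coincide.

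The NR4A receptors have no established natural ligand, and their activity is thought to follow their amount. In mouse liver Nr4a1 is known to be induced by glucagon and fasting. Nr4a1 (chromosome 15, 101253902 to 101274795, GRCm38.p6) had a level of 5.88 in the HLF-deficient tumour and 3.54 in the wild-type tumour. The difference of 2.34, or 5.07-fold, was the 8th highest of the 14575 genes and the largest of the set. In the wild-type tumour the gene lay only 0.56 above the floor, in the range where RMA compresses differences. Nr4a2 (chromosome 2, 57106830 to 57124003) had 3.78 in the HLF-deficient and 3.24 in the wild-type tumour, a difference of 0.54, with both values within 1 unit of the floor. Among all genes compared, 8.24% had a higher difference. Nr4a3 (chromosome 4, 48045078 to 48086447) read 2.25 in the HLF-deficient and 2.16 in the wild-type tumour, both below the floor, so that no fold is given. In this family, then, 1 of the 3 genes differed by more than 2-fold.

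The sequence before the start of the 3 receptor genes is shown because all 3 share short CREs there, while only Nr4a1 passed 2-fold. The windows are the 250 bases before the RefSeq start, read 5′ to 3′ on the gene's strand, at chr15:101266596-101266845 (plus strand) for Nr4a1, chr2:57124004-57124253 (minus strand) for Nr4a2 and chr4:48045055-48045304 (plus strand) for Nr4a3, all GRCm38.p6. The starts used for Nr4a1 and Nr4a3 lie inside the gene spans given, 12944 and 227 bases downstream of the outer end, whereas that of Nr4a2 is at the outer end. Capitals mark every match to TGACG (called the short CRE here) or GCGNGGGCG (the motif bound by Egr proteins), on either strand.
Nr4a1: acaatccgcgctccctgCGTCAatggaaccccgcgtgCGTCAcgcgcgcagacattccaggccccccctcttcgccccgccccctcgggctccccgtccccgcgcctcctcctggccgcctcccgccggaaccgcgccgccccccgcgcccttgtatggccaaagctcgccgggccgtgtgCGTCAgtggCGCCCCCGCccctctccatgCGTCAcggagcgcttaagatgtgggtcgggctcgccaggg
Nr4a2: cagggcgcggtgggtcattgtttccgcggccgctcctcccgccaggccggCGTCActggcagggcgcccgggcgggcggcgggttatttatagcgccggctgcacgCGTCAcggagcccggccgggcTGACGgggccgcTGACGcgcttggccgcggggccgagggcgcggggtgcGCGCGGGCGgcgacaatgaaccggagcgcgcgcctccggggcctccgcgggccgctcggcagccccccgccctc
Nr4a3: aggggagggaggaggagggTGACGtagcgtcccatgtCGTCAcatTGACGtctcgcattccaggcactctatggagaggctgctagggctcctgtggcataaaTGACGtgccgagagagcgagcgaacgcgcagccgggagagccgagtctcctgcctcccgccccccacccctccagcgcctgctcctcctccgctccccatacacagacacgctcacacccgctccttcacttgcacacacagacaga
Each of the 3 windows holds 4 short CREs. In Nr4a1 they begin 233, 213, 69 and 40 bases before the start, and all 4 lie on the reverse strand. An Egr motif begins 60 bases before the start of Nr4a1 and 74 bases before that of Nr4a2. The gene with the largest difference and the gene under the floor thus have the same number of short CREs in these windows, which say nothing about what was bound in the tumours.

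Btg2 joins mRNAs to the CCR4-NOT deadenylase and restrains proliferation; it is both an early gene and a target of p53. Btg2 (chromosome 1, 134074865 to 134079155) was at 7.45 in the HLF-deficient tumour and 5.48 in the wild-type tumour. This is a difference of 1.98, or 3.94-fold, ranked 29th among all genes. Both values were well above the floor, by 4.48 in the HLF-deficient and 2.50 in the wild-type tumour. Its relatives, all named with their values already known, differed less: Tob1 by 0.53, Btg1 by 0.45 and Tob2 by 0.03.

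Zfp36, or tristetraprolin, binds AU-rich elements in the mRNAs of cytokines and of early genes and brings about their decay. Zfp36 (chromosome 7, 28376784 to 28379228) had 7.04 in the HLF-deficient and 5.56 in the wild-type tumour, a difference of 1.48, or 2.79-fold. Its paralogs, also named after their values were seen, went the same way with smaller differences, 0.98 for Zfp36l2 and 0.71 for Zfp36l1. With the medians of the arrays made equal, called centring below, Zfp36l2 passed 2-fold at 1.10. It lay at 0.79 after quantile normalization and at 0.81 after loess. Of 12 mRNAs listed as Zfp36 targets, 9 were compared. Higher by 2-fold were 3 of them, against 1.5% of all genes compared: Il1b at 1.70, Ier3, itself one of the early genes described here, at 1.47 and Cxcl1 at 1.17. None was lower by 2-fold, against 0.364% of all genes, and the median was 0.60. Ptgs2 was the lowest at -0.14, close to 0 and at 0.02 after quantile normalization. Tnf, Il6 and Csf2 were under the floor on both arrays. After quantile normalization Cxcl1 lay at 0.99, just under 2-fold, while Cxcl2, at 0.88 as deposited, passed it at 1.02; the count was 3 then, and 4 with centred arrays or loess. The wild-type value of Cxcl2 lay under the floor.

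The windows before Btg2 and Zfp36 are shown because they hold the only full CRE and one of the CArG boxes found among these genes, and that of Egr2 as a contrast, since Egr2 was level between the tumours. They lie at chr1:134079156-134079405 (minus strand) for Btg2, chr7:28379229-28379478 (minus strand) for Zfp36 and chr10:67537619-67537868 (plus strand) for Egr2, which has 5 windows in RefSeq. The Egr2 start used here lies 3400 bases inside the gene's span, and those of Btg2 and Zfp36 are at the outer ends of theirs. Capitals mark the full CRE TGACGTCA, which contains 2 overlapping short CREs, the CArG box, the short CRE and the Egr motif.
Btg2: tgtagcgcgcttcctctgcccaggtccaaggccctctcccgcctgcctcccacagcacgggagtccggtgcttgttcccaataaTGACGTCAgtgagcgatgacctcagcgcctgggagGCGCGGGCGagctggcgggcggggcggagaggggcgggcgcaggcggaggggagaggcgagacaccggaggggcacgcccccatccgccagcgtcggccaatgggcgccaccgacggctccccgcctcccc
Zfp36: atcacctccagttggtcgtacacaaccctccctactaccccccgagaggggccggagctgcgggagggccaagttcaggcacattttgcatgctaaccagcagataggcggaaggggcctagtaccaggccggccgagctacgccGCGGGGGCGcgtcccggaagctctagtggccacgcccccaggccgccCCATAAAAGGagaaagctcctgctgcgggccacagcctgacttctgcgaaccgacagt
Egr2: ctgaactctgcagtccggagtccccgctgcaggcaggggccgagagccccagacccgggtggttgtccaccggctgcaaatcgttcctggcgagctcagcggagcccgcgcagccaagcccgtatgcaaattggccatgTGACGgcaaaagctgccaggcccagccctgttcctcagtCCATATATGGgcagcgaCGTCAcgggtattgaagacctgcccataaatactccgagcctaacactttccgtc
The full CRE of Btg2 begins 166 bases before the start and its Egr motif 131 bases before it. The CArG box of Zfp36 begins 58 bases before the start, and its Egr motif 105 bases before it. The CArG box of Egr2 begins 72 bases before this start, with short CREs on both sides of it, 111 and 55 bases before the start.

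The Egr genes encode zinc finger factors that carry growth signals into secondary gene programs; Nab1 and Nab2 are their corepressors, and Nab2 is itself an Egr target. Egr1 (chromosome 18, 34861207 to 34864956) was at 7.56 in the HLF-deficient and 6.03 in the wild-type tumour, 2.89-fold higher with a difference of 1.53. Egr2 (chromosome 10, 67534469 to 67542188), best known for its role in myelination and the hindbrain, was at 3.63 in the HLF-deficient and 3.68 in the wild-type tumour. Its difference of -0.05 turned to 0.07, 0.08 and 0.09 with centred arrays, quantile normalization and loess, so that it has no direction here; its window is printed above. The relatives listed with them were Egr3, Egr4, Nab1 and Nab2. Of these 4, 0 passed 2-fold, near the share of all genes, 1.5% upwards and 0.364% downwards. They lay between -0.26 for Egr4 and 0.30 for Nab1, with a median of 0.06 that was -0.07 after quantile normalization.

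Ier2 and Ier3 are short early genes; Ier2 encodes a nuclear protein, and Ier3 (also called IEX-1) is known to modulate apoptosis and ERK signalling. Ier3 (chromosome 17, 35821713 to 35822911) was at 5.19 in the HLF-deficient and 3.72 in the wild-type tumour, a difference of 1.47, or 2.78-fold, with the wild-type value 0.74 above the floor. Ier2 (chromosome 8, 84661331 to 84662852) was at 5.83 in the HLF-deficient and 4.67 in the wild-type tumour, 2.23-fold higher with a difference of 1.16. Of their relatives, again picked with values in view, Ier5 was at 0.32 and Ier5l at -0.30.

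Klf6, a Krüppel-like zinc finger factor induced in liver injury and described as a tumour suppressor, was the least changed of the 7. Klf6 (chromosome 13, 5861489 to 5870393) was at 7.05 in the HLF-deficient and 5.95 in the wild-type tumour. The difference of 1.10, or 2.14-fold, fell below the 2-fold rule after quantile normalization (0.91) and after loess (0.93). Klf10, a TGF-beta-induced relative, was 1.22 higher and was the only other Klf gene of the 10 compared to pass 2-fold. The lowest was Klf5 at -0.38, followed by Klf2, named after its value was seen, at -0.24.

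**Figure D2:**
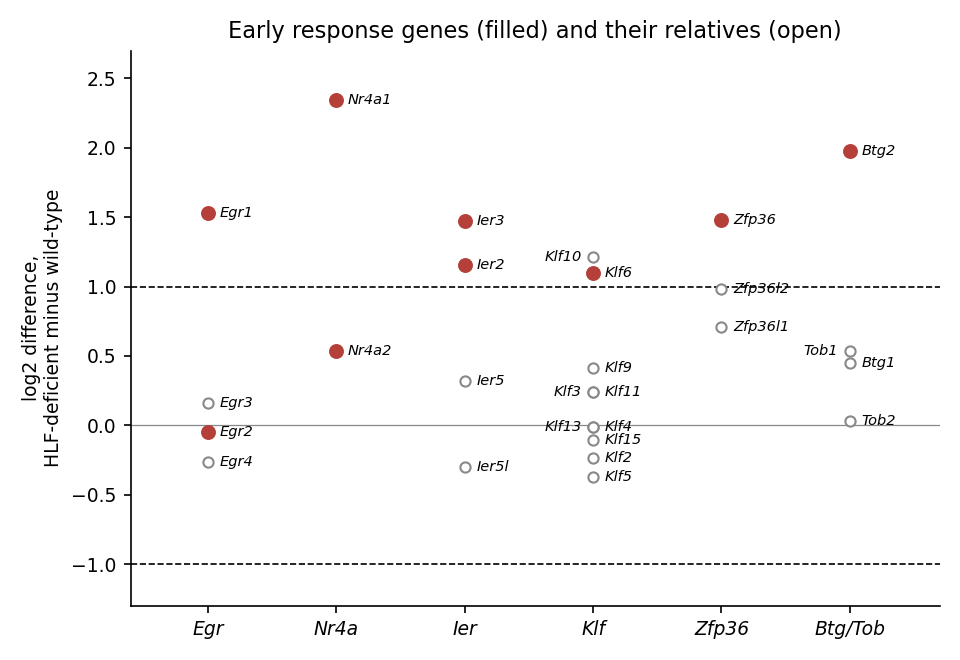
HLF-deficient minus wild-type expression (log2) of each compared early response gene (filled) and of its relatives (open), by family, with dashed lines at 2-fold. In each family except Klf, where Klf10 stands above Klf6, the highest point is a filled one, that is, a gene of the set. Among the 18 relatives, Klf10 alone lies beyond 2-fold as deposited. Zfp36l2 joins it when the arrays are centred, but not after quantile normalization or loess. Egr2 lies just under 0 here and just above it under the 3 other scalings.

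Relatives within a family differed widely. From lowest to highest, the Egr family spanned 1.80 on the log2 scale, the Btg and Tob genes 1.95, the Ier genes 1.77 and the Klf genes 1.59, whereas the 3 Zfp36 genes spanned 0.77. The 18 relatives outside the set had a median difference of 0.20, and 1 of them passed 2-fold upwards, against 1.5% of all genes compared.

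Differences on these arrays depended somewhat on level, so each gene was also set against all genes whose mean level lay within 0.5 of its own. The local medians ran from -0.16 around Nr4a2 to 0.24 around Btg2. Relative to these medians, Nr4a1 stood 2.27 higher, Btg2 1.74, Ier3 1.47, Egr1 1.30, Zfp36 1.24, Ier2 0.98, Klf6 0.86, Nr4a2 0.70 and Egr2 0.10. All 9 compared genes were above their local median, and 5 of them by at least 1.

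**Figure D3:**
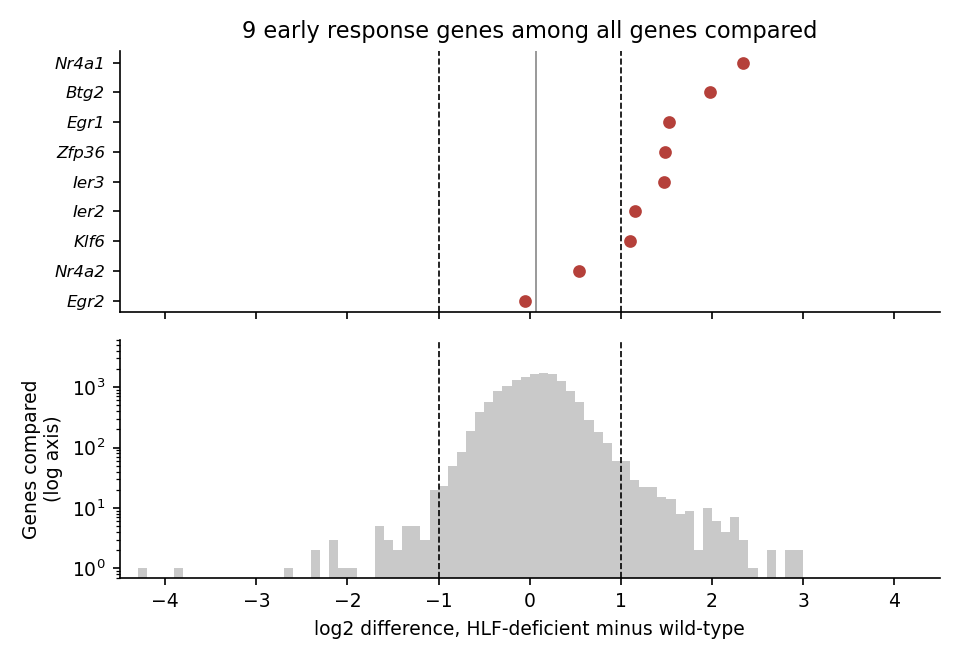
Above, HLF-deficient minus wild-type expression (log2) of the 9 compared early response genes; below, on the same axis, the number of genes in bins of 0.1 among all 14575 compared, on a log axis. Dashed lines mark 2-fold and the grey line the median of all genes, 0.07; 7 of the 9 points lie right of the upper 2-fold line, with Egr2 next to the median of all genes, at -0.05 as deposited and between 0.07 and 0.09 under the other scalings.

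The genes lie on 10 different chromosomes. The 4 compared genes nearest to each in RefSeq gene order, 40 in all, included 0 beyond 2-fold. Of all genes compared, 1.5% passed 2-fold upwards and 0.364% downwards, so that 0 of 40 is near that share and says little about the neighbours. Their median was 0.17, against 0.07 for all genes compared, with a range of -0.92 to 0.94. The genes of the set are compact: their median span was 6006 bases, against 20634 bases for the compared genes, and 8 of the 10 were shorter than that median. By size of difference alone, the compared gene nearest to Nr4a1 was St14, a membrane serine protease, at 2.33, and the one nearest to Egr2 was Rbis at -0.05; over 2 arrays such likeness carries little information.

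The table of RefSeq windows used here was matched for 8 of the 10 genes; Egr1 and Ier2 are named only. A CArG box occurred in 2 of the 8, Zfp36 and Egr2, against 1.44% of the 11520 compared genes with a window. The short CRE TGACG occurred in 5 of the 8, against 27.8% of the compared genes, and the full CRE in 1 of the 8, against 2.69%. The Egr motif occurred in 4 of the 8, Nr4a1, Nr4a2, Zfp36 and Btg2, against 9.68%. The AP-1 motif TGANTCA, the Nr4a motif AAAGGTCA and the PAR bZIP motif TTANGTAA, the class HLF belongs to, occurred in 0 of the 8, against 5.98%, 1.24% and 1.69%. Both strands were searched and a gene with several windows counted once if any held the motif, which gives Egr2 more chances. The share of G and C in the 12 windows of the 8 genes ran from 54.0% to 80.0%, against a median of 59.2% in the compared genes, and 3 of the 12 lay under that median.

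**Figure D4:**
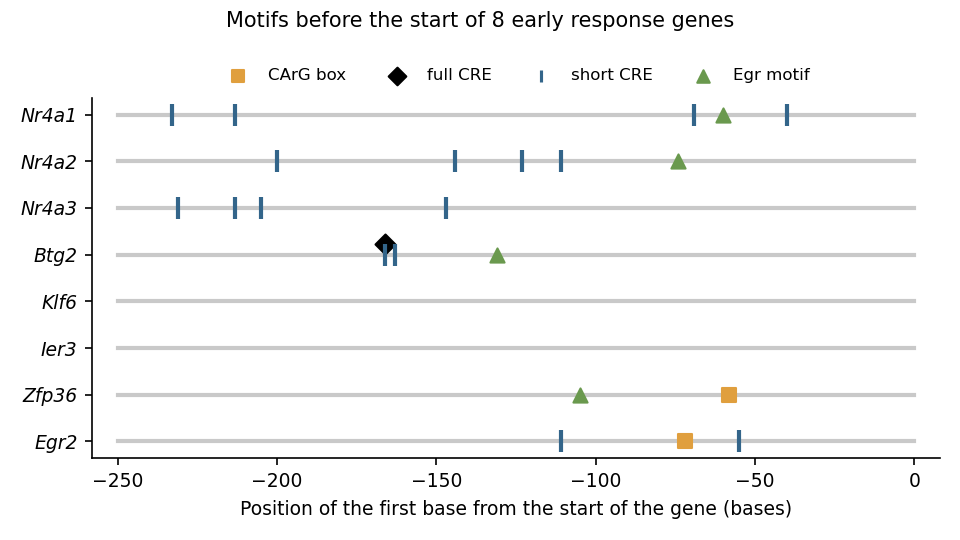
First base of each motif match in the 250 bases before the start of 8 early response genes, in bases from the start; for Egr2, 1 of its 5 windows is drawn. Short CREs (bars) appear in the 3 Nr4a genes, Btg2 and Egr2, CArG boxes (squares) in Zfp36 and Egr2, Egr motifs (triangles) in 4 genes, and no match in Klf6 and Ier3.

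The machinery upstream of these genes differed by less than 2-fold at the mRNA level. Of 21 kinases and transcription factors that induce early genes, 17 were compared and 0 passed 2-fold in either direction. Of all genes compared, 1.5% passed it upwards and 0.364% downwards, so that 0 of 17 is near that share. The median of the 17 was 0.17, against 0.07 for all genes compared. As deposited 14 of the 17 were positive, and after quantile normalization 11. They ranged from -0.09 for Mrtfb, an SRF coactivator, to 0.68, above the 95th percentile of all genes, 0.65. The RXR receptors, which pair with Nr4a1 and Nr4a2, lay between -0.04 for Rxrg and 0.28. None of these 3 passed 2-fold, which is again near the share of all genes. With centred arrays Mrtfb was at 0.03 and Rxrg at 0.08. These mRNA levels do not show kinase activity or phosphorylation, which were not measured.

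Of 32 further early genes outside AP-1, 7 passed 2-fold upwards, 0 passed it downwards and 25 lay between, 5 of the 32 having negative differences. The share of all genes that passed upwards was 1.5%. The median of the 32 was 0.68, and the count was 10 with centred arrays and 4 after quantile normalization or loess. Dusp1, a phosphatase that switches off MAP kinases, led at 1.78, followed by Rgs2, an inhibitor of G protein signalling, at 1.75, Plk2, a stress-induced kinase, at 1.53 and Gadd45g, a growth arrest gene, at 1.48. The lowest was Id1, an inhibitor of bHLH factors, at -0.28. Among the AP-1 subunits, 4 of 9 were higher by 2-fold, Fos at 2.27, Atf3 at 2.01, Jun at 1.63 and Maff at 1.43, with Fosl2 lowest at -0.07, or 0.05 with centred arrays. The lists were made with earlier results of these data known, so that these counts are no independent support for one another.

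Gluconeogenic genes that Nr4a receptors are known to induce in mouse liver did not pass 2-fold as deposited, 0 of 5, with a median of 0.33. Of all genes compared, 1.5% passed it upwards and 0.364% downwards. G6pc and Pck1, singled out for their values, lay just under it at 0.95 and 0.94, and passed it at 1.07 and 1.06 with centred arrays. They lay further under it after quantile normalization, both at 0.84, and after loess, at 0.81 and 0.82. Eno3 was the lowest at -0.18.

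Of 8 heat shock genes listed, 7 were compared, since the probe set of Hspa1b names several genes. Higher by 2-fold were 4 of the 7, against 1.5% of all genes: Hspa1a at 2.66, Hspb1 at 2.64, Hsph1 at 1.82 and Dnajb1 at 1.57. The other 3, Hspa8 at 0.42, Hspe1 at 0.30 and Hspd1 at 0.25, did not pass it, and the median was 1.57. Their summed linear level was 4371 in the HLF-deficient and 2963 in the wild-type tumour. Heat shock and early genes are both known to respond to handling of tissue; the part of such a response in the differences was not tested.

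Early genes are expressed by many cell types, and in bulk tissue a change in the number of cells and in RNA per cell cannot be told apart. For the counts below, 1.5% of all genes compared were higher by 2-fold and 0.364% lower, and 2.03% were higher with centred arrays. A count of 0 in such short lists is near these shares and says little. Macrophage markers were higher by 2-fold for 2 of 10, Cd14 at 1.86 and Cd68 at 1.53, and the lowest was the Kupffer cell gene Clec4f at -0.37; their summed linear level was 1091 in the HLF-deficient and 771 in the wild-type tumour. Endothelial markers were higher by 2-fold for 1 of 8, Lyve1 at 1.21, and Clec4g was lowest at -0.76. The count was 3 of 8 with centred arrays and 1 of 8 after quantile normalization or loess. These endothelial markers summed to 879 in the HLF-deficient and 689 in the wild-type tumour. Stellate cell and fibroblast markers had 0 of 8 beyond 2-fold, from -0.13 for Lrat to 0.76 for Col1a2, and summed to 731 in the HLF-deficient and 616 in the wild-type tumour. Markers of neutrophils, T and NK cells, B and plasma cells and cholangiocytes had 0 of 16 compared genes beyond 2-fold, and their sums were 55, 63, 80 and 70 in the HLF-deficient tumour and 67, 71, 80 and 74 in the wild-type tumour. Under the floor on both arrays were Ly6g, Cxcr2 and Mmp8 among the neutrophil markers, Gzmb and Klrb1c among those of T and NK cells, Cd79a and Ms4a1 among those of B cells, and Cftr among those of cholangiocytes. Liver tumour markers were higher by 2-fold for 4 of 5, and the lowest, Golm1 at 0.34, did not pass it. Spink1 had the highest difference, with a level of 5.23 in the HLF-deficient tumour and a value under the floor in the wild-type tumour. The part of these cell types and of tumour state in the early gene differences was not tested.

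**Figure D5:**
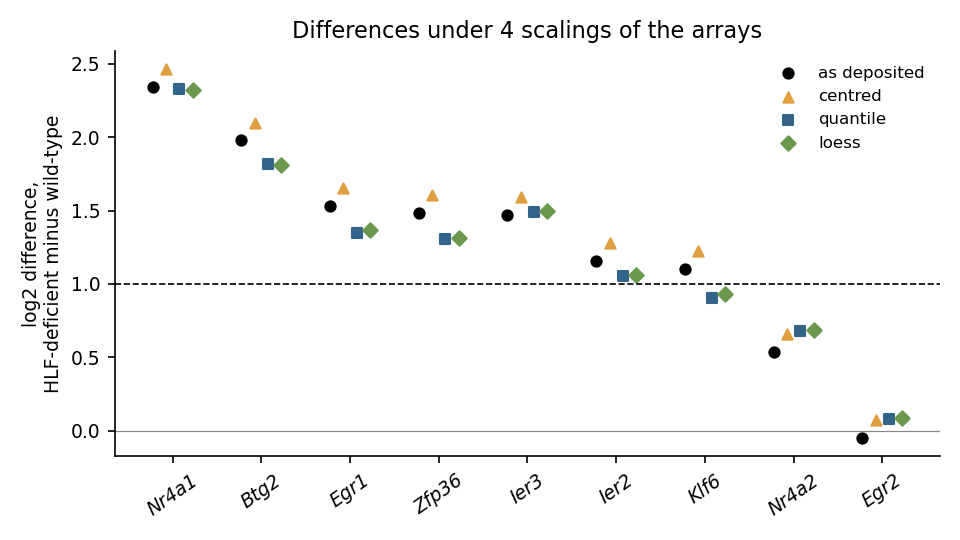
HLF-deficient minus wild-type expression (log2) of the 9 compared early response genes with the values as deposited, with centred arrays, after quantile normalization and after removal of a loess trend. Nr4a1, Btg2, Egr1, Zfp36, Ier3 and Ier2 stay above the dashed 2-fold line under all 4, Klf6 crosses it under quantile (0.91) and loess (0.93), and Egr2 changes sign around 0.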

How the data were processed

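Tumour RNA was labelled with an Affymetrix whole-transcript kit, per the labels' protocols. The deposited log2 values come from RMA, run in Affymetrix Expression Console per the submitters' processing notes; the log2 scale itself was read from the values. RMA subtracts background, brings arrays to a like distribution and combines probes, which shrinks differences of dim genes. No source used here says which arrays entered the normalization. Of 35556 probe sets, 21789 named 1 gene, 1621 several and 12146 none; only the first kind was used, with the brightest probe set of a gene. Names and positions came from the platform annotation and RefSeq (GRCm38.p6), and 5 list entries were found under a newer symbol. The floor rests on 1243 receptor probe sets. With 1 array a group no test was run, and a rule of 2-fold was used. The procedure was run on simulated data, with changes added only to genes well above the floor in the wild-type tumour. Genes near the floor there, such as Nr4a1, lay outside that setting. Precision is limited by having 1 array a group.

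The genes, lists and tests were chosen with earlier results of these data known. The naming rule was all members, the members of each list beyond 2-fold (at most 4) with its lowest, the highest and lowest marker of each list, and the gene nearest in difference to 2 members. The planned protein comparison was not run. Alternatives were 3 scalings, probe sets averaged per gene, other floors and other fold rules. Python 3.11.15, pandas 2.3.3 and statsmodels 0.14.6 were used.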

Additional observations from a re-analysis of the deposited data

How the results depend on the processing

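The count of 7 early genes beyond 2-fold was 6 after quantile normalization and after loess, without Klf6 (0.91 and 0.93), and 7 with centred arrays. Averaging probe sets or setting values to the floor could not alter it, since each of these genes has 1 probe set and the 9 compared lay above the floor on both arrays; other floors only alter which genes are compared. The count was 7 at 1.5-fold and 1, Nr4a1, at 4-fold. The median difference ran from 1.31 after quantile normalization to 1.59 with centred arrays. Of 27 single differences recomputed under another scaling, 25 kept their side of 2-fold, the exceptions being the 2 values of Klf6. With a floor of 3.78, the 99th percentile of receptor probe sets, Nr4a2 and Egr2 were no longer compared, and Nr4a1 and Ier3, then under the floor in the wild-type tumour, were at least 4.29-fold and 2.65-fold higher. Centring raised the median of all genes by 0.13 and changed the number of genes lower by 2-fold to 32, against 53 as deposited; the higher ones then numbered 294, against 218. At 1.5-fold 929 genes were higher and 454 lower, and at 4-fold 27 and 9. No paired analysis was possible because each group has 1 array. No replicate could be left out for the same reason.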
